A study of Mus musculus with 12 samples.

Results

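The lysine acetyltransferases Kat5, Kat2a, Kat2b, Ep300, Crebbp, Kat6a, Kat7 and Kat8 were taken by gene name from the deposited count table, where all 8 were found among 12208 genes. They were followed across 4 lines of 393P, a mouse lung cancer cell line that the labels call epithelial and non-metastatic. One line carried wild-type Zeb1 (Zeb1_WT), one the Zeb1 form labelled Zeb1_deficient, one the form labelled Zeb1_mimetic, and one a GFP vector (GFP_Vector); no line received a treatment, and all were kept in RPMI medium with serum. The series title concerns acetylation of ZEB1, a zinc-finger repressor that drives the epithelial-mesenchymal transition, so deficient and mimetic are taken to mean ZEB1 that cannot be acetylated and ZEB1 that mimics the acetylated state, not loss of the gene. The labels give 3 biological replicates for each line, whereas the series' design text speaks of 2, a conflict that bears on every n given here. Since 1 line stands for each form, the Zeb1 form and other differences between lines cannot be told apart. The p-values measure only the spread between libraries within lines. In the main fit this spread is estimated over all 12 libraries, so a library of neither line compared can change a p-value.

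Lysine acetyltransferases move an acetyl group from acetyl-CoA to lysines of histones and of transcription factors, which loosens chromatin and creates sites that bromodomain proteins read. The members belong to 3 families. KAT5 (TIP60), KAT6A (MOZ), KAT7 (HBO1) and KAT8 (MOF) are MYST enzymes, which are catalytic subunits of multiprotein complexes. KAT2A (GCN5) and KAT2B (PCAF) are alternative catalytic subunits of the SAGA and ATAC coactivator complexes. EP300 and CREBBP (CBP) are large paired coactivators that bind many transcription factors, and in other systems p300 and PCAF are reported to bind and acetylate ZEB proteins.

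Of the 8 enzymes, 7 differed among the lines, a share close to the 80.9% of all tested genes that did. Each differed by less than 2-fold, and they did not move as a block. Kat5 RNA rose in all 3 Zeb1 lines and Kat7 RNA fell in all 3. Kat2a rose in the wild-type line and not detectably in the mutants, while its partner enzyme Kat2b fell in both mutants and not detectably in the wild-type line. Ep300, Crebbp and Kat6a had their lowest mean in the deficient line, as did Kat2a and Kat7. For Ep300, Crebbp and Kat7 the difference from the wild-type line did not pass the test. How many comparisons of Ep300, Crebbp and Kat6a passed depended on 1 vector library, and for some also on other libraries. Kat8, the least abundant, passed in none of the comparisons.

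The reference stretch around the start of 4 members, from RefSeq on GRCm38.p6, is shown because the lines differ in a DNA-binding repressor whose zinc fingers are known to recognise the E-box CACCTG. Kat5 and Kat7 are the members that moved in opposite directions in every Zeb1 line, Kat2b fell in both mutants and not detectably in the wild-type line, and Kat8 is the one with no detected change. Each stretch runs 5′ to 3′ on the gene's own strand, from 250 bases before to 50 bases after the start, and capitals mark CACCTG or its reverse complement CAGGTG. They cover chr11:95310197-95310496 (minus strand) for Kat7, chr7:127912267-127912566 (plus strand) for Kat8, chr19:5610045-5610344 (minus strand) for Kat5 and chr17:53566721-53567020 (plus strand) for Kat2b.
Kat7: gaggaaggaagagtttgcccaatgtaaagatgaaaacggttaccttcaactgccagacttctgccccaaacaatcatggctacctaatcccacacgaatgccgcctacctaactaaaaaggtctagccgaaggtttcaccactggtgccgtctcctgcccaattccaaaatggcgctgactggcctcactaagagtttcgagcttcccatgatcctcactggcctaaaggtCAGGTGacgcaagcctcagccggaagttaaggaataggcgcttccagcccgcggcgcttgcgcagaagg
Kat8: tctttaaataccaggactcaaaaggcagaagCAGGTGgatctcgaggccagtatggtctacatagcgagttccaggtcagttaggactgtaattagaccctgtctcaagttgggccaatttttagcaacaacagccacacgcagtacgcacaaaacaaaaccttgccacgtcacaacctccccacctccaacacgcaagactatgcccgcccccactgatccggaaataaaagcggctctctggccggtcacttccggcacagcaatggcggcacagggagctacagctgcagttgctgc
Kat5: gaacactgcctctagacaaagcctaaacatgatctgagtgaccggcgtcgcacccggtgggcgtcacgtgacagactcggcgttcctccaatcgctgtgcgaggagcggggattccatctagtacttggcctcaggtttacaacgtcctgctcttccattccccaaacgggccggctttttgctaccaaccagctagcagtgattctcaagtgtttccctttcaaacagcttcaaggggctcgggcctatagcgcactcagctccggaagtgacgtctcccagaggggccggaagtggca
Kat2b: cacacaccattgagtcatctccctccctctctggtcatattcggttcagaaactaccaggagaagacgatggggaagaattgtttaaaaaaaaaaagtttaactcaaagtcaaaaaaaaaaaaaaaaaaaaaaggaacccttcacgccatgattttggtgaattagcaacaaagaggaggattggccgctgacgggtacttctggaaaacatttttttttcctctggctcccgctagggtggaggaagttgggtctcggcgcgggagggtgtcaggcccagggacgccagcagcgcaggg
Kat7 held 1 match beginning 19 bases before its start, and Kat8 held 1 match 219 bases before its start and another, in the stretch of a second listed start, 91 bases before it. The stretches found for Kat2a, Ep300 and Crebbp, and both of those for Kat2b and for Kat5, held none, and Kat6a was not matched. These letters occur in 6640 of 32851 RefSeq mouse promoter stretches of the same length (20.2%). A match is a description of these letters only, and one was present both in a member that fell and in the member with no detected change.

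Expression was measured by 3′ tag sequencing, in which a transcript gives tags near its 3′ end, so levels can be set beside each other between genes without dividing by length. Values are CPM, counts scaled to a common library size after TMM (trimmed mean) adjustment. Library totals ran from 28.4 to 35.8 M counts in the wild-type line, 31.0 to 33.0 M in the deficient line, 24.4 to 27.5 M in the mimetic line and 33.3 to 39.0 M in the vector line. Zeb1 RNA averaged 244 ± 6.87 CPM in the wild-type line, 484 ± 13.1 in the deficient line and 228 ± 12.2 in the mimetic line, against 31.3 ± 2.79 in the vector line (SD, n = 3 each), so the amount of Zeb1 RNA differed as well as its form. The summed level of 7 epithelial markers was 4178 to 4331 CPM in wild-type libraries, 7731 to 7865 in deficient libraries and 5591 to 5762 in mimetic libraries, against 9068 to 10492 in vector libraries. Keratins make up most of this sum, and not every marker followed it: Cldn3 averaged 12.3 CPM in the wild-type line, 44.1 in the deficient line and 26.3 in the mimetic line, against 16.8 in the vector line. Cldn7 was below 0.5 CPM throughout and Epcam and Cldn4 were not analysed here. The listed markers of other cell types that could be measured summed to at most 4.30 CPM for fibroblasts (4 of 7 markers), 8.43 for haematopoietic cells (1 of 6), 7.15 for endothelium (2 of 4) and 1.83 for differentiated lung epithelium (1 of 5, Ager). The part of these shifts in the acetyltransferase values was not tested.

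All 8 members passed the filter on low counts that left 12027 genes for testing. Kat6a was the most abundant over the 12 libraries, with a mean of 114 CPM, followed by Kat7 at 102, Kat2b at 97.7, Ep300 at 91.7, Kat2a at 83.4, Crebbp at 66.5, Kat5 at 52.6 and Kat8 at 14.2. Kat6a lay above 82.9% of tested genes in level and Kat8 above 31.5%. Order within the upper group depended on the line. In the vector line Kat6a, Kat7, Kat2b and Ep300 had overlapping libraries, so their order there is not resolved. Kat8 lay below the libraries of the 7 other enzymes in all 4 lines. Kat5 lay below those of the 6 remaining ones in the wild-type, mimetic and vector lines and overlapped Crebbp in the deficient line.

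**Figure D1:**
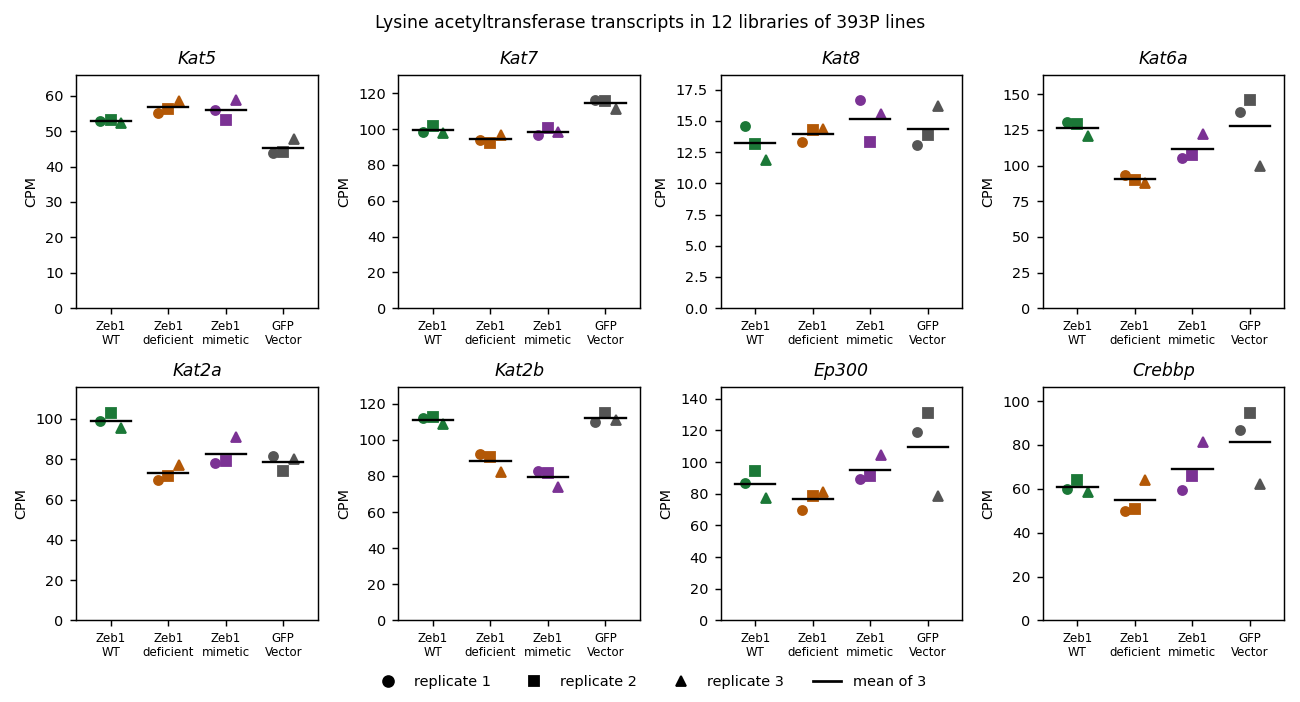
Level of each acetyltransferase in CPM (vertical axes from 0) in the 3 libraries of each line, with wild-type, deficient and mimetic Zeb1 left of the vector line; points are libraries, marker shapes the replicate numbers, and bars the means. Kat5 libraries of all Zeb1 lines lie above the vector libraries and Kat7 libraries below them, and vector replicate 3 lies apart from the other 2 vector libraries for Ep300, Crebbp and Kat6a.

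The libraries that stood apart from their line come before the comparisons. In vector replicate 3, Ep300 was lower than the mean of the other 2 vector libraries by -0.67 on the log2 scale, Crebbp by -0.54 and Kat6a by -0.51. These are the 3 members with the longest annotated transcripts, 9566, 10820 and 9113 bases, whereas those of the other 5 run from 1579 to 4653 bases. The 564 genes of at least 10 CPM with a transcript of 8000 bases or more (a limit chosen after seeing the data) had a median of -0.21 in the same library, against 0.03 for 8290 shorter genes. In the other 11 libraries the median of the long genes stayed between -0.04 and 0.16. Why long transcripts were low in this library was not tested, and the comparisons of Ep300, Crebbp and Kat6a are given with and without it. Tested for any difference among the 4 lines, these 3 had adjusted p-values of 0.00445, 0.00185 and 0.000174, and 1.37e-07, 4.55e-06 and 2.94e-09 without vector replicate 3.

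Deficient replicate 3 also stood apart from its line. Its mean chi-square per gene against the other 2 deficient libraries was 17.1 and 23.6, against 5.25 between those 2, where vector replicate 3 gave 13.7 and 21.2 against 6.23. Relative to the mean of the other 2 it gave 0.35 for Crebbp and -0.15 for Kat2b on the log2 scale, and the median of the long genes was 0.03. Without it the same number of members was called in every comparison except the mimetic against the deficient line, where 4 were called instead of 3, the added one being Crebbp. Mimetic replicate 3 stood apart less by chi-square (5.88 and 5.65, against 3.44 between the other 2 mimetic libraries). Relative to those 2, it gave 0.38 for Crebbp, 0.21 for Kat2a and Ep300, 0.20 for Kat6a and -0.16 for Kat2b. Without mimetic replicate 3, 0 members were called between the mimetic and deficient lines.

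**Figure D2:**
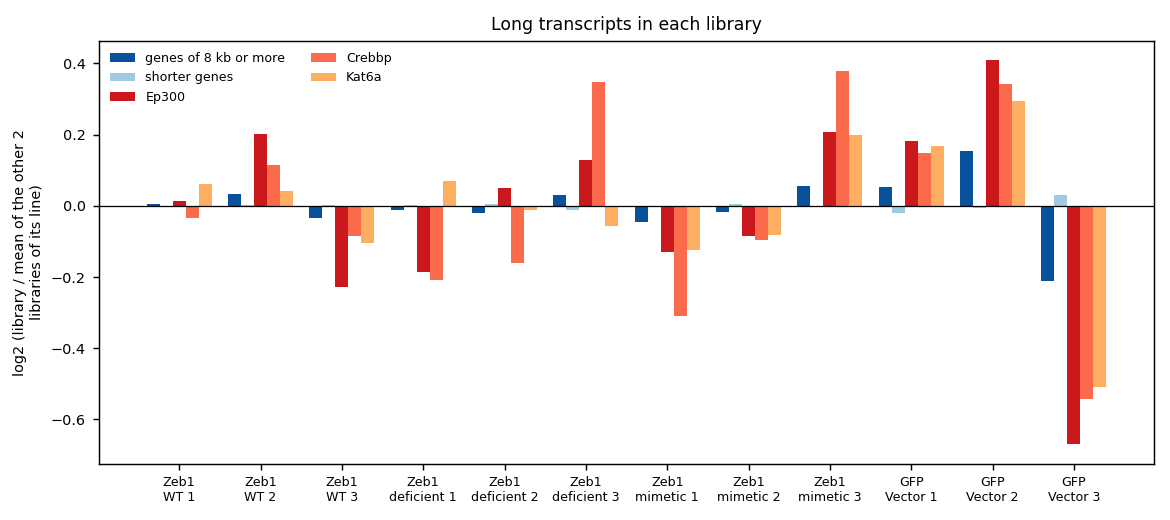
Log2 level of each library relative to the mean of the other 2 libraries of its line (vertical axis), for the median of genes with transcripts of at least 8000 bases, the median of shorter genes, and Ep300, Crebbp and Kat6a, with the vector libraries at the right. Vector replicate 3 is the library where the long genes (-0.21), Ep300 (-0.67), Crebbp (-0.54) and Kat6a (-0.51) all lie low.

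Differences were tested on the counts with edgeR's quasi-likelihood test, and p-values were adjusted over all tested genes; rose and fell stand for an adjusted p under 0.05. In bulk RNA, fewer cells of a kind and less RNA per cell cannot be told apart. Tested for any difference among the 4 lines, 7 of the 8 members had an adjusted p under 0.05, beside 80.9% of all tested genes, so the share of members is close to the background. The remaining member was Kat8 (adjusted p = 0.37). Kat2b had the smallest adjusted p, 3.7e-08, with a 1.41-fold range between its highest and lowest line. In the wild-type line against vector, 2 members rose, beside 31.0% of all genes, and 3 fell, beside 33.6%. In the deficient line against vector, 1 rose, beside 28.4%, and 5 fell, beside 29.8%. In the mimetic line against vector, 1 rose, beside 28.6%, and 2 fell, beside 30.9%. These 3 comparisons share the vector libraries, and without vector replicate 3 the mimetic line had 6 members called instead of 3 and the wild-type line 6 instead of 5. The median log2 fold change of the 8 members was -0.07 in the wild-type line, -0.31 in the deficient line and -0.20 in the mimetic line, where the median over all genes was between -0.01 and 0.00.

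Between the Zeb1 lines, 2 members were higher in the mimetic than in the deficient line, beside 12.6% of all genes, and 1 was lower, beside 14.9%. None (0) was higher in the mimetic than in the wild-type line, beside 23.1%, and 2 were lower, beside 21.8%. Likewise 0 members were higher in the deficient than in the wild-type line, beside 27.5%, and 3 were lower, beside 26.3%. Kat2a and Kat2b account for calls in all 3 of these comparisons and Kat6a for a call in both that include the deficient line. No member reached a 2-fold change in any of the 6 comparisons.

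**Figure D3:**
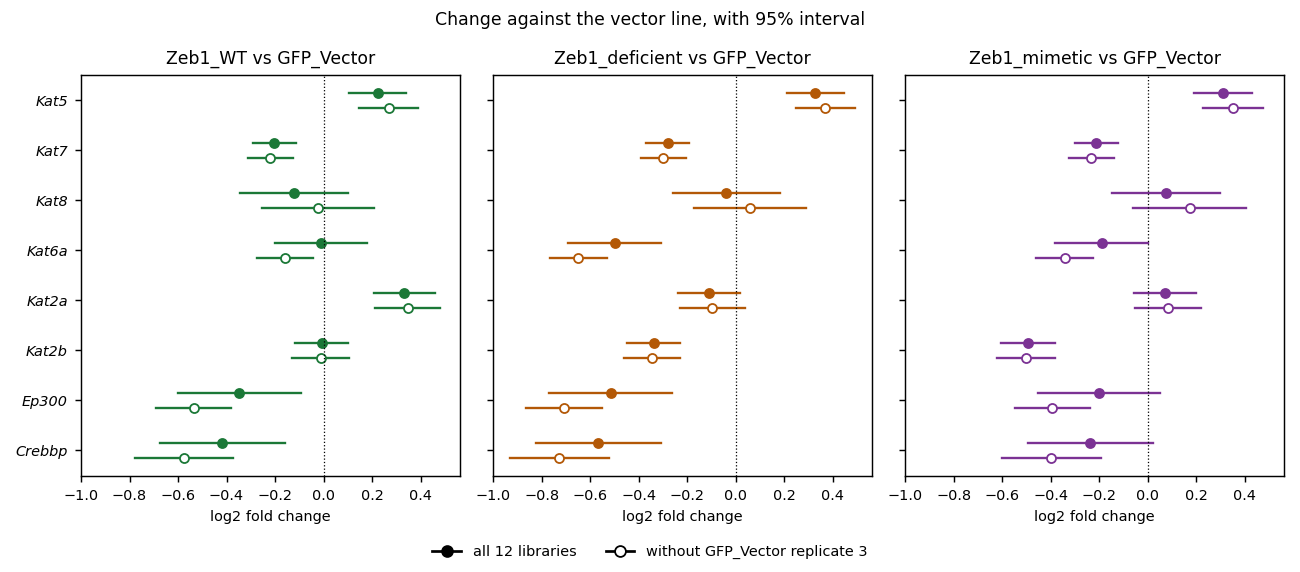
Log2 fold change of each acetyltransferase in the wild-type, deficient and mimetic Zeb1 lines over the vector line (horizontal axis) with its 95% interval, from edgeR; filled symbols use all 12 libraries and open symbols leave out vector replicate 3. Kat5 lies right of 0 and Kat7 left of 0 in all 3 panels, and leaving out the library moves Ep300, Crebbp and Kat6a to the left.

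Kat5 encodes TIP60, the catalytic subunit of the NuA4 complex, which acetylates histones H4 and H2A and takes part in DNA repair. It lies on chromosome 19 (5603014 to 5610237, minus strand, GRCm38). Its level was 52.8, 53.1 and 52.3 CPM in the wild-type libraries, 55.1, 56.3 and 58.6 in the deficient libraries and 56.0, 53.2 and 58.7 in the mimetic libraries, against 43.7, 44.1 and 47.7 in the vector libraries. Every Zeb1 library was above every vector library. Against vector, Kat5 rose 1.17-fold in the wild-type line (log2 fold change 0.22, SE 0.06, adjusted p = 0.00171), 1.25-fold in the deficient line (0.33, SE 0.06, adjusted p = 4.67e-05) and 1.24-fold in the mimetic line (0.31, SE 0.06, adjusted p = 9.09e-05), by the quasi-likelihood test of edgeR. All mutant libraries were above all wild-type libraries, but no difference between Zeb1 forms passed the test. The log2 difference was -0.02 between the mimetic and deficient lines (95% interval -0.14 to 0.10, adjusted p = 0.846), 0.09 between the mimetic and wild-type lines (-0.03 to 0.20, adjusted p = 0.234) and 0.10 between the deficient and wild-type lines (-0.01 to 0.22, adjusted p = 0.126). With library-size scaling the mimetic against the wild-type line gave 0.14 and was called (adjusted p = 0.0443).

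The 3′ end of Kat5 lies inside Rnaseh2c, a subunit gene of RNase H2 on the opposite strand, with 4006 shared bases, and the strand setting of the counting is not given in the sources used here. Rnaseh2c averaged 54.0 ± 1.14 CPM in the wild-type line, 40.2 ± 5.19 in the deficient line and 39.1 ± 3.05 in the mimetic line, against 41.5 ± 6.66 in the vector line (SD, n = 3 each). It rose in the wild-type line (log2 fold change 0.38, adjusted p = 0.00188) and gave -0.05 in the deficient line (adjusted p = 0.695) and -0.09 in the mimetic line (adjusted p = 0.463). In the mutants Kat5 rose and Rnaseh2c did not detectably change, whereas in the wild-type line both genes rose. The part of the shared bases in the Kat5 counts was not tested.

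Kat7 encodes HBO1, which acetylates histone H3 or H4 depending on its scaffold and acts at replication origins. It lies on chromosome 11 (95274259 to 95310246, minus strand). Kat7 stood at 98.7, 101 and 97.8 CPM in the wild-type libraries, 94.0, 92.1 and 96.6 in the deficient libraries and 97.0, 101 and 98.3 in the mimetic libraries, against 116, 116 and 111 in the vector libraries. All 9 Zeb1 libraries were below all 3 vector libraries. The fall was 1.15-fold in the wild-type line (log2 fold change -0.20, SE 0.04, adjusted p = 0.000294), 1.21-fold in the deficient line (-0.28, SE 0.04, adjusted p = 1.08e-05) and 1.16-fold in the mimetic line (-0.21, SE 0.04, adjusted p = 0.000223). Among the Zeb1 lines the differences were within -0.08 and 0.07 on the log2 scale and did not pass the test (adjusted p from 0.14 to 0.87).

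Kat6a encodes MOZ, an H3 acetyltransferase known for its role in haematopoietic stem cells and in leukaemia fusions, and lies on chromosome 8 (22859535 to 22943259, plus strand). It had 130.2, 129 and 121 CPM in the wild-type libraries, 93.2, 89.8 and 87.9 in the deficient libraries and 105, 107 and 122 in the mimetic libraries, against 138, 146 and 99.7 in the vector libraries. The deficient libraries lay below all others, and vector replicate 3 lay closer to them than to the other vector libraries. In the deficient line Kat6a fell 1.41-fold against vector (log2 fold change -0.50, SE 0.09, adjusted p = 0.000104) and 1.40-fold against the wild-type line (-0.49, SE 0.09, adjusted p = 0.000163). Without vector replicate 3 the first of these became -0.65 (adjusted p = 1.46e-09), while the second compares no vector library and was -0.49 (adjusted p = 3.39e-08).

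Kat6a was 1.24-fold higher in the mimetic than in the deficient line (log2 fold change 0.31, SE 0.09, adjusted p = 0.0181), with no overlap of libraries, a call kept without vector replicate 3 (0.31, adjusted p = 7.94e-05) and lost without deficient replicate 2 (adjusted p = 0.0503) or mimetic replicate 3 (adjusted p = 0.0978). Against vector, the wild-type line gave -0.01 (95% interval -0.20 to 0.18, adjusted p = 0.929) and the mimetic line -0.19 (-0.38 to 0.00, adjusted p = 0.0794). Without vector replicate 3 these values were -0.16 (adjusted p = 0.0164) and -0.34 (adjusted p = 1.7e-05), both then called. The mimetic line against the wild-type line gave -0.18 (adjusted p = 0.118), and -0.18 with an adjusted p of 0.00486 without that library, which belongs to neither line.

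Kat8 encodes MOF, the enzyme of the MSL and NSL complexes that acetylates histone H4 at lysine K16, and lies on chromosome 7 (127912516 to 127925837, plus strand). Its libraries spanned 11.9 to 14.6 CPM in the wild-type line, 13.3 to 14.4 in the deficient line and 13.3 to 16.6 in the mimetic line, against 13.0 to 16.2 in the vector line. The 4 ranges overlap. No comparison passed the test, and the interval against vector ran from -0.34 to 0.10 on the log2 scale in the wild-type line, from -0.26 to 0.18 in the deficient line and from -0.15 to 0.30 in the mimetic line. The fall of Kat7 in the wild-type line, -0.20, would lie inside the interval of Kat8 there, so a fall of that size in Kat8 is not excluded. The last 122 bases of the gene are shared with Prss8 on the opposite strand, which was not analysed here.

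Kat2a encodes GCN5, the H3 acetyltransferase of SAGA and ATAC, and lies on chromosome 11 (100704746 to 100712465, minus strand). It stood at 98.8, 103 and 95.5 CPM in the wild-type libraries, 69.9, 71.9 and 77.1 in the deficient libraries and 78.1, 78.9 and 90.9 in the mimetic libraries, against 81.8, 74.3 and 80.1 in the vector libraries. The wild-type libraries were above all 9 others. Against vector, Kat2a rose 1.26-fold in the wild-type line (log2 fold change 0.33, SE 0.06, adjusted p = 6.67e-05), and gave -0.11 in the deficient line (95% interval -0.24 to 0.02, adjusted p = 0.126) and 0.07 in the mimetic line (-0.06 to 0.20, adjusted p = 0.334). The difference between Zeb1 forms was itself tested: Kat2a was 1.36-fold lower in the deficient than in the wild-type line (-0.44, SE 0.06, adjusted p = 3.79e-06) and 1.20-fold lower in the mimetic than in the wild-type line (-0.26, SE 0.06, adjusted p = 0.00148). It was 1.13-fold higher in the mimetic than in the deficient line (0.18, SE 0.06, adjusted p = 0.0332), a call lost without deficient replicate 1 (adjusted p = 0.126), deficient replicate 2 (adjusted p = 0.0944) or mimetic replicate 3 (adjusted p = 0.221).

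Kat2b encodes PCAF, the paralogue of GCN5 that occupies the same place in these complexes and was first found as a partner of p300 and CBP. It lies on chromosome 17 (53566861 to 53672720, plus strand). Its level was 112, 113 and 109 CPM in the wild-type libraries, 92.4, 90.5 and 82.4 in the deficient libraries and 82.9, 81.5 and 73.7 in the mimetic libraries, against 109.8, 115 and 111 in the vector libraries. Wild-type and vector libraries intermingle, and all 6 libraries of the mutants lie below them. Against vector, Kat2b fell 1.26-fold in the deficient line (log2 fold change -0.34, SE 0.05, adjusted p = 1.34e-05) and 1.41-fold in the mimetic line (-0.50, SE 0.05, adjusted p = 8.84e-08), while the wild-type line gave -0.01 (95% interval -0.12 to 0.10, adjusted p = 0.907).

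Set against wild-type Zeb1, Kat2b was 1.40-fold lower in the mimetic line (log2 fold change -0.49, SE 0.05, adjusted p = 2.98e-07) and 1.26-fold lower in the deficient line (-0.33, SE 0.05, adjusted p = 2.34e-05). The mimetic line was below the deficient line by a further 1.11-fold (-0.16, SE 0.05, adjusted p = 0.0338). That last call is fragile: libraries of the 2 lines overlap, and the adjusted p was 0.0789 with library-size scaling, 0.0575 in a fit of these 2 lines alone and 0.0559 to 0.185 when 1 of 6 libraries was left out (each wild-type library in turn, deficient replicates 1 and 2, and mimetic replicate 3).

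Ep300 encodes p300, a coactivator that acetylates histone H3 at enhancers, and lies on chromosome 15 (81585351 to 81652077, plus strand). It had 86.5, 94.1 and 77.2 CPM in the wild-type libraries, 70.0, 78.3 and 81.1 in the deficient libraries and 89.4, 91.4 and 104 in the mimetic libraries, against 119, 131 and 78.5 in the vector libraries. Vector replicates 1 and 2 are above every Zeb1 library, and vector replicate 3 lies among the deficient libraries. Ep300 fell 1.43-fold in the deficient line against vector (log2 fold change -0.52, SE 0.12, adjusted p = 0.00112) and 1.27-fold in the wild-type line (-0.35, SE 0.12, adjusted p = 0.0169). The second call was lost with DESeq2 (adjusted p = 0.0715), in a fit of these 2 lines alone (adjusted p = 0.0506) and without wild-type replicate 3 (adjusted p = 0.0908), vector replicate 1 (adjusted p = 0.0855) or vector replicate 2 (adjusted p = 0.144). Without vector replicate 3, Ep300 gave -0.54 in the wild-type line (adjusted p = 1.6e-06) and -0.71 in the deficient line (adjusted p = 3.49e-08).

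In the mimetic line Ep300 was -0.20 against vector (95% interval -0.46 to 0.05, adjusted p = 0.16), and -0.39 without vector replicate 3 (adjusted p = 9.85e-05), where it is called. All mimetic libraries were above all deficient libraries, with a log2 difference of 0.31 (SE 0.12, adjusted p = 0.0635). Without vector replicate 3 the same difference, 0.31, had an SE of 0.07 and an adjusted p of 0.00125; that library belongs to neither line. The deficient line against the wild-type line gave -0.17 (adjusted p = 0.254), and -0.17 with an adjusted p of 0.0379 without it. The mimetic line against the wild-type line gave 0.14 (adjusted p = 0.358), and 0.14 with an adjusted p of 0.0955 without it.

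Crebbp encodes CBP, the close relative of p300 that was found as the partner of the factor CREB, and lies on chromosome 16 (4081328 to 4213997, minus strand). Its level was 59.9, 64.0 and 58.5 CPM in the wild-type libraries, 49.7, 50.9 and 64.0 in the deficient libraries and 59.4, 65.8 and 81.3 in the mimetic libraries, against 87.0, 94.7 and 62.4 in the vector libraries. As for Ep300, vector replicates 1 and 2 exceed every Zeb1 library and vector replicate 3 does not. Crebbp fell 1.34-fold in the wild-type line (log2 fold change -0.42, SE 0.12, adjusted p = 0.00571) and 1.48-fold in the deficient line (-0.57, SE 0.12, adjusted p = 0.000561), the largest change of any member among the 6 comparisons. Without vector replicate 3 these became -0.58 (adjusted p = 2.27e-05) and -0.73 (adjusted p = 1.35e-06).

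The mimetic line gave -0.24 for Crebbp against vector (95% interval -0.50 to 0.02, adjusted p = 0.104), and -0.40 without vector replicate 3 (adjusted p = 0.00139). Between the mimetic and deficient lines Crebbp differed by 0.33 (adjusted p = 0.0569), and by 0.33 with an adjusted p of 0.00797 without that library. Deficient replicate 3 and mimetic replicate 3 were the highest Crebbp libraries of their lines, so the 2 lines overlap. Without deficient replicate 3 the difference was 0.45 (adjusted p = 0.0131). Against the wild-type line, Crebbp gave 0.18 in the mimetic line (adjusted p = 0.256) and -0.15 in the deficient line (adjusted p = 0.328). Without vector replicate 3 these were 0.18 (adjusted p = 0.113) and -0.15 (adjusted p = 0.16).

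Ratios of counts within a library do not depend on how libraries are scaled, and 4 ratios between related enzymes were compared. The ratio of Kat2a to Kat2b was 0.883, 0.913 and 0.876 in the wild-type libraries, 0.757, 0.794 and 0.935 in the deficient libraries and 0.942, 0.968 and 1.23 in the mimetic libraries, against 0.745, 0.646 and 0.723 in the vector libraries. Every Zeb1 library was above every vector library, and the mimetic libraries were above all others. The 4 lines differed (exact permutation test of the F statistic over 369600 arrangements, p = 0.00117, 0.00468 adjusted over the 4 ratios). In the wild-type line this came with more Kat2a, and in the mutants with less Kat2b.

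Kat5 over Kat8 averaged 4.02 ± 0.395 in the wild-type line, 4.05 ± 0.101 in the deficient line and 3.72 ± 0.320 in the mimetic line, against 3.16 ± 0.203 in the vector line (SD, n = 3 each; exact permutation p = 0.0180, adjusted 0.036), with every Zeb1 library above every vector library. Kat6a over Kat7 averaged 1.28 ± 0.0432, 0.959 ± 0.0428 and 1.13 ± 0.0957 in the same Zeb1 lines, against 1.11 ± 0.192 in the vector line (exact permutation p = 0.0747, adjusted 0.0996), and the deficient libraries lay below all wild-type and mimetic libraries. This ratio was 0.895 in vector replicate 3, where Kat6a was low, and 1.19 and 1.26 in the other vector libraries. The permutation test over the 4 lines was not repeated without that library. Ep300 over Crebbp stayed between 1.26 and 1.54 in all 12 libraries and no difference was detected (exact permutation p = 0.792). With 3 libraries against 3, the exact permutation test of a single pair of lines cannot go below p = 0.1, which all pairs without overlap reached.

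**Figure D4:**
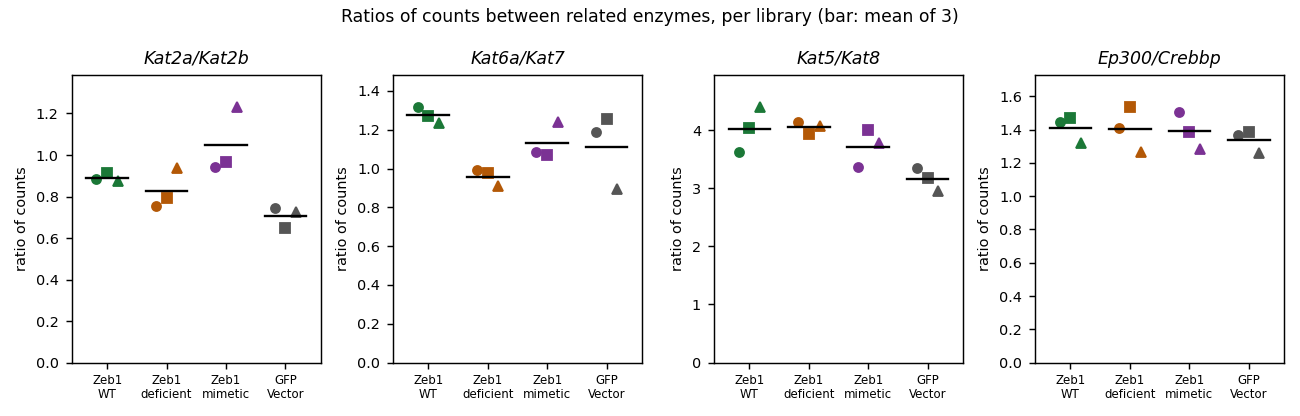
Ratio of counts between related acetyltransferases in each library (vertical axes), for wild-type, deficient and mimetic Zeb1 left of the vector line; points are libraries and bars the means. For Kat2a over Kat2b and for Kat5 over Kat8 all Zeb1 libraries lie above all vector libraries, and Ep300 over Crebbp lies between 1.26 and 1.54 throughout.

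Across the 12 libraries Ep300 and Crebbp varied most alike among the members, with a Pearson r of 0.94 in log2 CPM, and 0.95 without vector replicate 3. Kat5 and Kat7 varied in opposite senses (r = -0.92, and -0.92 without that library). Kat2a and Kat2b had an r of 0.32. Libraries of a line share their culture history, so these are descriptions and not independent points. Among 8688 other protein-coding genes of at least 10 CPM, Kat5 was most like Rhob (r = 0.97), a small GTPase of endosomes, and Nop9 (0.97). Kat2a was most like Fkbp11 (0.96), a prolyl isomerase of the secretory pathway, and Cachd1 (0.95). Kat2b was most like Ccng1 (0.98), a cyclin induced by p53, and Sept6 (0.97), a septin. For Kat7 they were Kdm3b (0.98), a histone H3 demethylase, and Zzef1 (0.98).

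Ep300 was most like Nfat5 (0.98), the osmotic-stress factor, and Kmt2d (0.97), an enhancer H3K4 methyltransferase. Crebbp was most like Hcfc1 (0.96) and the chromatin-remodeller subunit Arid2 (0.96), and Kat6a like the cohesin loader Nipbl (0.98) and Vps13c (0.97). The longest transcripts of these 6 genes run from 8262 to 19823 bases, and all 6 were lower in vector replicate 3 than in the other vector libraries, as in Kmt2d with 68.6 CPM there and 139.5 and 194 CPM in the other 2. Without that library the same 6 correlations were 0.97 to 0.98. Both genes most like Kat7 were also lower in vector replicate 3. Zzef1, of 11306 bases, had 92.6 CPM there and 102 and 109 CPM in the other 2 vector libraries. Kdm3b, of 6363 bases, had 84.3 CPM there and 93.5 and 94.1 CPM in the other 2. Their correlations with Kat7 were 0.98 without that library. Kat8 had the weakest likenesses, 0.83 with Naif1 and 0.79 with the mitochondrial ribosomal gene Mrps18a.

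The genes that work with these enzymes were read from 8 lists, which share some genes: their complexes, their partners, other acetyltransferases, the supply of acetyl-CoA and the readers of acetylated lysine. Counts are to be read beside the shares of all genes given above, and medians beside all-gene medians between -0.01 and 0.00. Of 17 NuA4 subunits, which surround TIP60, 7 rose and 5 fell in the wild-type line against vector, 4 rose and 4 fell in the deficient line, and 7 rose and 4 fell in the mimetic line, where the 11 called became 7 without mimetic replicate 1 and 6 without mimetic replicate 2 or vector replicate 1. The median log2 fold change was 0.02 in the wild-type line, 0.08 in the deficient line and 0.08 in the mimetic line. Brd8, a bromodomain subunit, was 105 ± 3.11 CPM in the wild-type line, 112 ± 3.48 in the deficient line and 118 ± 5.73 in the mimetic line, against 156 ± 7.06 in the vector line (SD, n = 3 each), and fell in all 3 (1.48-, 1.39- and 1.32-fold). Vps72, which carries the histone variant H2A.Z, fell 1.37-fold in the wild-type line (adjusted p = 3.49e-07) and was 1.07-fold higher in the deficient line without passing the test (adjusted p = 0.107).

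Of 25 tested SAGA and ATAC subunits, the partners of GCN5 and PCAF, 10 rose and 6 fell in the wild-type line, 10 rose and 5 fell in the deficient line and 9 rose and 5 fell in the mimetic line, with medians of 0.06, 0.07 and 0.06. The SAGA core subunit Supt20 stood at 60.6 ± 2.66 CPM in the wild-type line, 104 ± 4.57 in the deficient line and 81.6 ± 0.474 in the mimetic line, against 92.7 ± 5.28 in the vector line. It fell 1.53-fold against vector in the wild-type line and was 1.72-fold higher in the deficient than in the wild-type line (adjusted p = 1.32e-10), opposite to Kat2a in both comparisons. Yeats2, a histone reader of ATAC, fell in all 3 Zeb1 lines (1.46-, 1.44- and 1.32-fold).

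Of 10 subunits that accompany MOZ and HBO1, 3 rose and 5 fell in the wild-type line, 2 rose and 2 fell in the deficient line and 2 rose and 2 fell in the mimetic line, with medians of -0.16, 0.02 and 0.02. Brd1 (BRPF2), a scaffold that binds HBO1 and MOZ, had the smallest adjusted p of this list. It stood at 146 ± 2.10 CPM in the wild-type line, 139 ± 6.22 in the deficient line and 136 ± 2.03 in the mimetic line, against 239 ± 2.65 in the vector line (SD, n = 3 each). Brd1 thus fell 1.64-, 1.71- and 1.75-fold (adjusted p = 4.4e-12, 1.95e-12 and 8.89e-13), in the same direction as Kat7 in each line. Jade3, another HBO1 scaffold, fell 1.68-fold in the wild-type line but rose 1.31-fold in the deficient line and 1.34-fold in the mimetic line.

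Of the 11 MSL and NSL subunits that carry MOF, 1 rose and 4 fell in the wild-type line, 1 rose and 4 fell in the deficient line, and 2 rose and 3 fell in the mimetic line, with medians of 0.03, -0.07 and -0.01. The 5 called in the mimetic line became 1 without mimetic replicate 1, 3 without mimetic replicate 3 and 2 without vector replicate 1. Ogt, the O-GlcNAc transferase bound to NSL, fell 1.62-, 1.71- and 1.64-fold in these lines, with means of 94.8, 89.6 and 93.6 CPM, against 153 CPM in the vector line. Kansl3 fell 1.31-fold in the wild-type line, rose 1.21-fold in the deficient line (adjusted p = 2.73e-05) and fell 1.09-fold in the mimetic line (adjusted p = 0.0247). Kat8 itself was not called in any of these comparisons.

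Of 19 tested partners of p300 and CBP, 1 rose and 8 fell in the wild-type line, 3 rose and 5 fell in the deficient line and 1 rose and 6 fell in the mimetic line, with medians of -0.18, -0.04 and -0.07. Set against the wild-type line, 8 were higher and 0 lower in the mimetic line and 7 higher and 1 lower in the deficient line. Without wild-type replicate 3 the 8 called in the mimetic line became 5. Ncoa2, a steroid receptor coactivator, fell 1.61-, 1.53- and 1.31-fold against vector. Its longest transcript has 8171 bases, and it was low in vector replicate 3 (54.1 CPM there, 66.1 and 70.8 in the other 2). That library lowered the vector mean from which these falls are measured. The hypoxia factor Hif1a fell 1.38-fold in the wild-type line and 1.27-fold in the mimetic line and gave -0.02 on the log2 scale in the deficient line (adjusted p = 0.643).

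Of 16 tested other acetyltransferases, 2 rose and 7 fell in the wild-type line, 1 rose and 7 fell in the deficient line and 4 rose and 7 fell in the mimetic line, with medians of -0.15, -0.11 and -0.09. The 11 called in the mimetic line became 7 without mimetic replicate 1. The circadian factor Clock, reported to acetylate histones, averaged 624 ± 4.32 CPM in the wild-type line, 515 ± 10.4 in the deficient line and 472 ± 7.19 in the mimetic line, against 294 ± 26.2 in the vector line (SD, n = 3 each). It rose 2.12-, 1.75- and 1.60-fold (adjusted p = 8.84e-14, 2.03e-11 and 2.45e-10), a larger fold in each line than that of any of the 8 members. Its longest transcript has 9744 bases, and it was lower in vector replicate 3 (264 CPM) than in the other 2 vector libraries (306 and 313 CPM). Atf2 fell 1.52-fold in the wild-type line (adjusted p = 2.78e-08) and was not called in the deficient line (-0.07, adjusted p = 0.314) or the mimetic line (-0.12, adjusted p = 0.0969).

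Of 14 tested genes of acetyl-CoA supply, 2 rose and 6 fell in the wild-type line, 4 rose and 6 fell in the deficient line, and 3 rose and 6 fell in the mimetic line, with medians of -0.02, -0.06 and -0.10. Mitochondrial Acat1, a thiolase that joins and splits acetyl-CoA units, rose 1.26-fold in the wild-type line and fell 1.36-fold in the deficient line and 1.21-fold in the mimetic line. It was highest in the wild-type and lowest in the deficient line, as Kat2a was. Its cytosolic counterpart Acat2 fell 1.20-fold in the wild-type line and 1.63-fold in the mimetic line, with -0.08 in the deficient line (adjusted p = 0.141).

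Of 30 tested readers of acetylated lysine, 9 rose and 13 fell in the wild-type line, 10 rose and 15 fell in the deficient line, and 7 rose and 16 fell in the mimetic line, with medians of -0.09, -0.16 and -0.15. Atad2, a bromodomain ATPase, rose 1.39-fold in the wild-type line, fell 1.10-fold in the deficient line (adjusted p = 0.00957) and gave 0.06 in the mimetic line (adjusted p = 0.234). Trim33, a bromodomain ubiquitin ligase of SMAD signalling, fell 1.47-fold in the wild-type line and 1.18-fold in the mimetic line and gave 0.01 in the deficient line (adjusted p = 0.867). Between the mimetic and deficient lines 7 readers were higher and 4 lower, and the 11 called became 7 without deficient replicate 1, deficient replicate 2 or mimetic replicate 2.

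**Figure D5:**
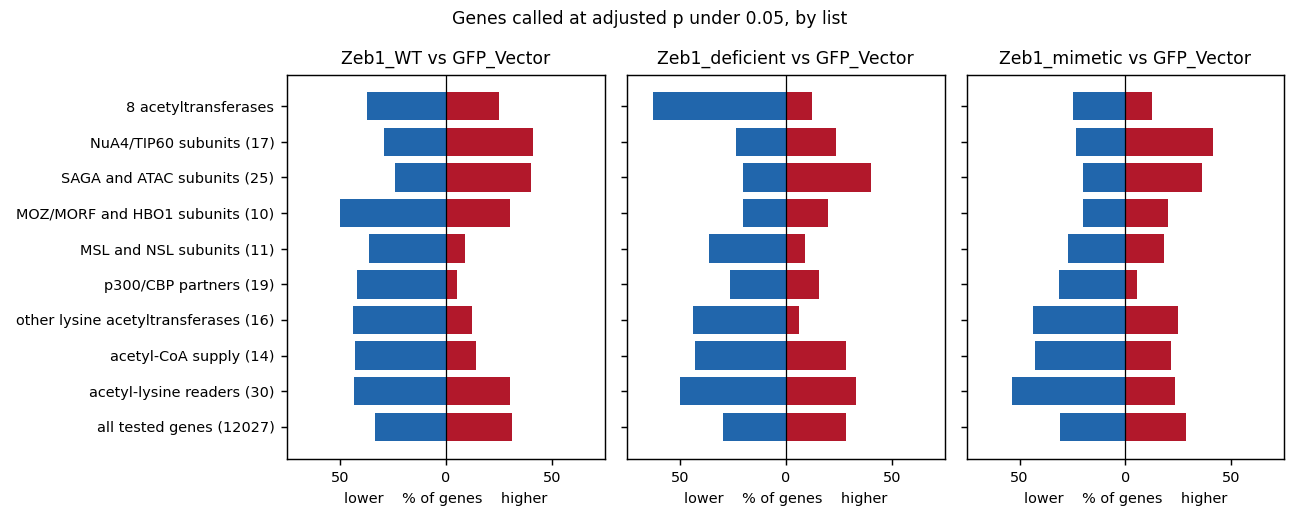
Percent of tested genes called higher (right of 0) and lower (left of 0) at an adjusted p under 0.05 among the 8 acetyltransferases and in each list of partner genes, beside the same for all 12027 tested genes, for the wild-type, deficient and mimetic Zeb1 lines against vector. Of the 30 readers of acetylated lysine 13, 15 and 16 fell in the 3 lines, and of the 25 SAGA and ATAC subunits 10, 10 and 9 rose.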

How the data were processed

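RNA of 12 libraries was analysed. The authors deposited raw counts for each gene, made from paired-end QuantSeq 3′ forward libraries, per the labels' protocols, and STAR and mm10 are named in the submitters' processing notes. The sources used here do not give the counting tool, its strand setting, the annotation or versions. The smallest listed count is 1, so genes with no count in some library are not analysed here.

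Counts were fitted with edgeR 4.0.16 in R 4.3.3 (TMM, filterByExpr, which removed 181 genes, quasi-likelihood over all 12 libraries, 1 coefficient per line, two-sided). Calls required an adjusted p under 0.05 (Benjamini-Hochberg over 12027 genes). The SE is the log2 fold change over the square root of F, and intervals are 95%. The procedure was tested on simulated data. Alternatives used limma 3.58.1, DESeq2 1.42.0, other scalings, filters and fits, and left out each library. Libraries of a line differed beyond sampling noise (a chi-square of 2.96 to 23.6 per gene on average), so none was counted as a copy. Of 12208 gene IDs, 12195 matched GENCODE M21 (GRCm38), which gave coordinates and transcript lengths; promoters of 7 of 8 members matched RefSeq.

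The members, lists and tests were chosen with earlier results of these data known, and no list is independent support. Named were all members, the 2 genes per list with the smallest adjusted p among the 4 lines (at least 5 CPM in the highest line), and the 2 genes of at least 10 CPM most correlated with each member.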

Additional observations from a re-analysis of the deposited data

Results flagged for a closer look

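In all, 8 results differ between Zeb1 forms set against the same vector control by a test of the difference itself, from edgeR's quasi-likelihood test with 3 libraries per line. Of all tested genes, 12.6% were higher and 14.9% lower in the mimetic against the deficient line. The shares were 23.1% and 21.8% in the mimetic against the wild-type line, and 27.5% and 26.3% in the deficient against the wild-type line. Kat2a was higher in the mimetic than in the deficient line by a log2 fold change of 0.18 (adjusted p = 0.0332), was -0.26 in the mimetic against the wild-type line (adjusted p = 0.00148) and -0.44 in the deficient against the wild-type line (adjusted p = 3.79e-06). Kat2b was -0.16 in the mimetic against the deficient line (adjusted p = 0.0338), -0.49 in the mimetic against the wild-type line (adjusted p = 2.98e-07) and -0.33 in the deficient against the wild-type line (adjusted p = 2.34e-05). Kat6a was 0.31 in the mimetic against the deficient line (adjusted p = 0.0181) and -0.49 in the deficient against the wild-type line (adjusted p = 0.000163). Between the mimetic and deficient lines, 0 members were called without deficient replicate 2, and likewise without mimetic replicate 3. Zeb1 RNA was higher in the deficient line (484 CPM) than in the mimetic line (228 CPM) and the wild-type line (244 CPM). Between the mimetic and wild-type lines its difference did not pass the edgeR test (log2 fold change -0.10, adjusted p = 0.14). The part of Zeb1 RNA in the 8 differences was not tested.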

How the results depend on the processing

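Each of 56 member results was recomputed under 19 or 20 alternatives: 40 kept their call under all of them, as did 25 of the 29 called, and no called result changed sign. Of the 48 differences between 2 lines, 6 that were not called took both signs. The number of members called stayed at 6 in the deficient against the vector line and at 7 among the 4 lines. In the mimetic against the vector line it was 3, and 3 to 6 when libraries were left out, with 5 without mimetic replicate 3 and 6 without vector replicate 3. In the mimetic against the deficient line it was 3, and 0 to 5 when libraries were left out: 1 without deficient replicate 1, 0 without deficient replicate 2 or mimetic replicate 3, and 5 without vector replicate 2 or vector replicate 3. In the mimetic against the wild-type line it was 2, and 5 in a fit of those 2 lines alone. The members added there were Ep300, Crebbp and Kat6a (adjusted p = 0.048, 0.0389 and 0.00315, edgeR). Their SD between vector libraries was 25.1, 20.7 and 19.3% of the mean. A fit of 2 lines takes its spread from those lines alone, whereas the main fit shares it over all 4 lines. Fewer libraries enter all such fits, and why the counts changed was not tested. With library-size scaling the split of all calls was 4334 higher and 3004 lower in the mimetic against the vector line (3438 and 3720 with TMM), 1982 and 1509 against the deficient line (1510 and 1789) and 3506 and 1980 against the wild-type line (2780 and 2618). Of 960 recomputed counts of partner lists 46 moved by over 1.5 times. The 168 recomputed ratio differences stayed within the spread between libraries around their main value. That check does not look at direction, and small differences could change sign. Ep300 over Crebbp did so in the deficient against the wild-type line without deficient replicate 3. Whether the replicate numbers pair the libraries is not settled by these values. The correlation of same-numbered deviations was -0.17 to 0.37, over 0.1 in 5 of 18 pairs. Between different numbers it was -0.33 to 0.27, over 0.1 in 8 of 36 pairs. As a hint of pairing, 9 of 12 libraries were closest to a library of their own number. With the number as a replicate block each comparison had as many members called as without it, as with 5 in the wild-type against the vector line.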
